A study of Mus musculus with 17 samples.

Results

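Molecular chaperones and the genes of the unfolded protein response were followed through T helper 2 (Th2) cells from the airway, the lymph node and culture. The set held 40 genes, chosen by symbol from a fixed list, and all 40 were found among the 24537 genes of the tables. That list was made with earlier results of these data known. By role they were 9 cytosolic chaperones, 3 mitochondrial chaperones, 5 subunits of the TRiC ring, 11 chaperones of the endoplasmic reticulum (ER), 4 protein disulfide isomerases, 3 sensors and 3 transcription factors of the unfolded protein response, the ER degradation factor Herpud1 and the heat shock regulator Hsf1.

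Chaperones hold or refold unfolded proteins, and heat shock factor 1 (Hsf1) switches on many of the cytosolic ones when misfolded protein builds up. In the ER, the sensors IRE1 (gene Ern1), PERK (Eif2ak3) and ATF6 (Atf6) respond to unfolded protein: IRE1 splices Xbp1 mRNA, PERK slows translation and favours ATF4, and cleaved ATF6 enters the nucleus. Their targets include ER chaperones such as BiP (Hspa5) and, under ATF4, the death-associated factor CHOP (Ddit3). Activated T cells that divide and secrete cytokines load this machinery heavily.

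The study sequenced mouse Th2 cells with Smart-seq2, a full-length cDNA method for small inputs, in 17 libraries of 6 groups. Gata3-YFP reporter mice (GATIR), whose YFP marks cells using the Th2 regulator gene Gata3, gave sorted cells from bronchoalveolar lavage (3 libraries, airway) and mediastinal lymph node (3 libraries) during allergen-driven airway inflammation. OTII mice, whose T cells carry a transgenic receptor for ovalbumin, gave sorted mediastinal lymph node cells during the same kind of inflammation, either wild type (3 libraries) or labelled as Notch1/2 knockout (4 libraries). Spleen T cells of OTII mice, wild type (2 libraries) or Notch1/2 knockout (2 libraries), were turned into Th2 cells over 7 days on plates coated with anti-CD3/CD28, with IL-4 and antibodies blocking IFN-γ and IL-12/23. All OTII groups share the receptor transgene. What deletes the Notch genes, the animals' ages and whether animals were pooled are not given in the sources used here, although the replicates are called biological.

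Levels below are RPKM (reads per kilobase of transcript, relative to library depth) after 1 scaling factor per library, called scaled RPKM; differences are on the log2(scaled RPKM + 1) scale, which understates changes of low genes. A gene rose or fell where limma's two-sided test over all genes tested gave a Benjamini-Hochberg adjusted p under 0.05. Library depth was 16.3 to 27.5 megareads.

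Several libraries stood apart. The T cell marker genes Cd3e, Cd3d, Cd3g, Cd4 and Lck were present in all 17 libraries (Cd3e 110 to 344 scaled RPKM). Gata3, on the same list, was 340 to 481 in the reporter libraries and 35.3 to 87.2 in the OTII libraries. Among node OTII libraries Gata3 was 51.8 to 62.2 in wild type and 35.3 to 45.0 in knockout-labelled ones, without overlap. In the airway libraries the 13 macrophage markers summed to 3397, 7902 and 3436, against 12.2 to 54.9 in the reporter lymph node, and 10 of the 11 tested rose; Car4 and Ear2 were at 0 in all 3 reporter node libraries. In the OTII libraries the same sum was 3.95 to 14.4. The airway epithelial marker Scgb1a1 reached 90.2 in replicate 2. The sum of 7 basophil markers, mainly Hdc and Mcpt8, was 148 to 276 in the airway and 554 to 880 in the reporter node. Fcer1a, Prss34, Ms4a2 and Gata2, which also define basophils, were at or near 0 there. The 8 plasma cell and B cell markers summed to 66.5, 41.6 and 58.2 in reporter node replicates 1 to 3. In airway replicates 1 to 3 they summed to 10.8, 66.2 and 3.72. All 6 tested were lower in the airway, and 1 of them fell. Jchain, a plasma cell marker, was 21.7 in reporter node replicate 1 and 30.3 in airway replicate 2. Knockout-labelled node replicate 2 correlated less with its group (r of log2 levels across 6715 genes 0.967 to 0.981) than the other 3 with each other (0.986 to 0.994). The header names of the node OTII libraries carry a first number shared by some replicates (WT2-1 and WT2-2, KO1-1 and KO1-2, KO2-1 and KO2-2). What that number stands for is not given in the sources used here.

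Notch1 was 46.2 to 48.9 in wild type node libraries and 8.01 to 12.9 in knockout-labelled ones, and 26.3 and 29.4 against 4.23 and 1.06 in culture. Notch2 was 7.53 to 8.08 against 14.1 to 18.7 in the node, and 7.65 and 7.37 against 7.16 and 6.64 in culture. A level over the whole transcript does not show the loss of an exon, so Notch2 does not check the label, and these groups are called knockout-labelled.

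Promoter sequence was searched for exact matches to known stress elements. RefSeq windows (GRCm38.p6, the build of the files, mm10) matched 32 of the 40 genes, and the 250 bases upstream of each start were searched on both strands. Hspa8, Hsp90aa1, Hsp90ab1, Hspa9, Hyou1, Manf, Atf6 and Hsf1 had no matched window, so no element given below was searched in them. The ER stress response element, searched as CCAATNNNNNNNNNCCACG, occurred in 7 of the 32 members (21.9%) and in 26 of 17127 windows of the same length (0.152%). Each is printed 5′ to 3′ in the direction of its gene, with the fixed letters of the element in capitals, because these genes, all folding factors of the ER, took different courses in the comparisons that follow.
Hspa5, chr2:34772005-34772063, + strand: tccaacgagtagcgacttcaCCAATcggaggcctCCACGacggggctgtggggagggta
Hsp90b1, chr10:86705513-86705676, - strand: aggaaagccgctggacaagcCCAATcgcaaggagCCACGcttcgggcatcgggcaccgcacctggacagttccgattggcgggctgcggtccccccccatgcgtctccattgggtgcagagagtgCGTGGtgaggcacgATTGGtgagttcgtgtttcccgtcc
Dnajc3, chr14:118937807-118937865, + strand: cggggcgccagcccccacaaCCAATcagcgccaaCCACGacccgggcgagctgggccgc
Calr, chr8:84847055-84847113, - strand: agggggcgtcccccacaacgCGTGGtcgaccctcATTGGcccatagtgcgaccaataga
Canx, chr11:50325780-50325838, - strand: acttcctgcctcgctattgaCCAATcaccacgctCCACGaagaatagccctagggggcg
Creld2, chr15:88819500-88819558, + strand: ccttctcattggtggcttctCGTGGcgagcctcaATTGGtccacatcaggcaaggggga
Pdia6, chr12:17266471-17266529, + strand: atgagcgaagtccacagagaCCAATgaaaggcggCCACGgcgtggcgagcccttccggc

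The heat shock element, searched as 3 units (GAANNTTCNNGAA or TTCNNGAANNTTC), occurred in 2 of the 32 members and in 79 of the 17127 windows (0.461%). Both members, Hspd1 and Hspe1, share it: the genes are divergent, with starts 216 bases apart, and encode the mitochondrial chaperonin HSP60 and its lid HSP10. The shared stretch is shown in the direction of Hspe1, with the letters of 2 overlapping matches in capitals, because both genes fell in the lymph node comparison.
Hspe1 and Hspd1, chr1:55088039-55088096, + strand: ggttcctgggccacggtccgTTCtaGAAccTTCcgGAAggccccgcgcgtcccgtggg
The ATF4 composite element TGATGCAA was found in 1 member (Herpud1), against 126 of 17127 windows (0.736%), and the element TGACGTGG in none, against 99 windows (0.578%). The plain CCAAT box, part of the ER stress element, occurred in 23 members (71.9%) against 35.6% of windows. A match describes letters in a window and was not tested as a binding site. Elements with a mismatch, another spacing or a place outside the window were not counted. A member without a match may therefore still carry such an element.

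The members differed widely in level. In wild type node cells the cytosolic chaperone gene Hsp90ab1 (chromosome 17, 45567778 to 45573261) was highest at 1321 ± 63.0 (SD, n = 3), followed by Calr, an ER chaperone that binds calcium and sugar chains, at 613 ± 45.7. BiP (Hspa5) followed at 451 ± 56.4. Pdia3, a disulfide isomerase that works with Calr, came next at 325 ± 27.3, and Hsp90b1, the ER form of HSP90, at 316 ± 33.6; these 2 neighbours overlapped. At the low end were the stress-inducible pair Hspa1a and Hspa1b, then Ern1 (3.15), Dnajb9 (4.26), Atf6 (6.43) and Eif2ak3 (8.36). Hsp90ab1 ranked first in all groups but the airway, where Pdia3 led at 477 ± 94.0 and Hsp90ab1 was second at 262 ± 54.8.

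Hspa1a and Hspa1b, the classical heat-inducible HSP70 genes, stayed near the floor. Hspa1a was at most 2.93 (airway replicate 1, 144 reads) and was listed at 0 in airway replicate 2 and reporter node replicate 3. Hspa1b was 0 to 0.0567 in the reporter mice, 0.408 to 1.56 in the OTII node and 0.0530 to 0.184 in culture. The copies are nearly identical, so reads may be split between them and both values are uncertain. Their constitutive relative Hspa8 stood at 145 to 264 across the OTII libraries.

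**Figure D1:**
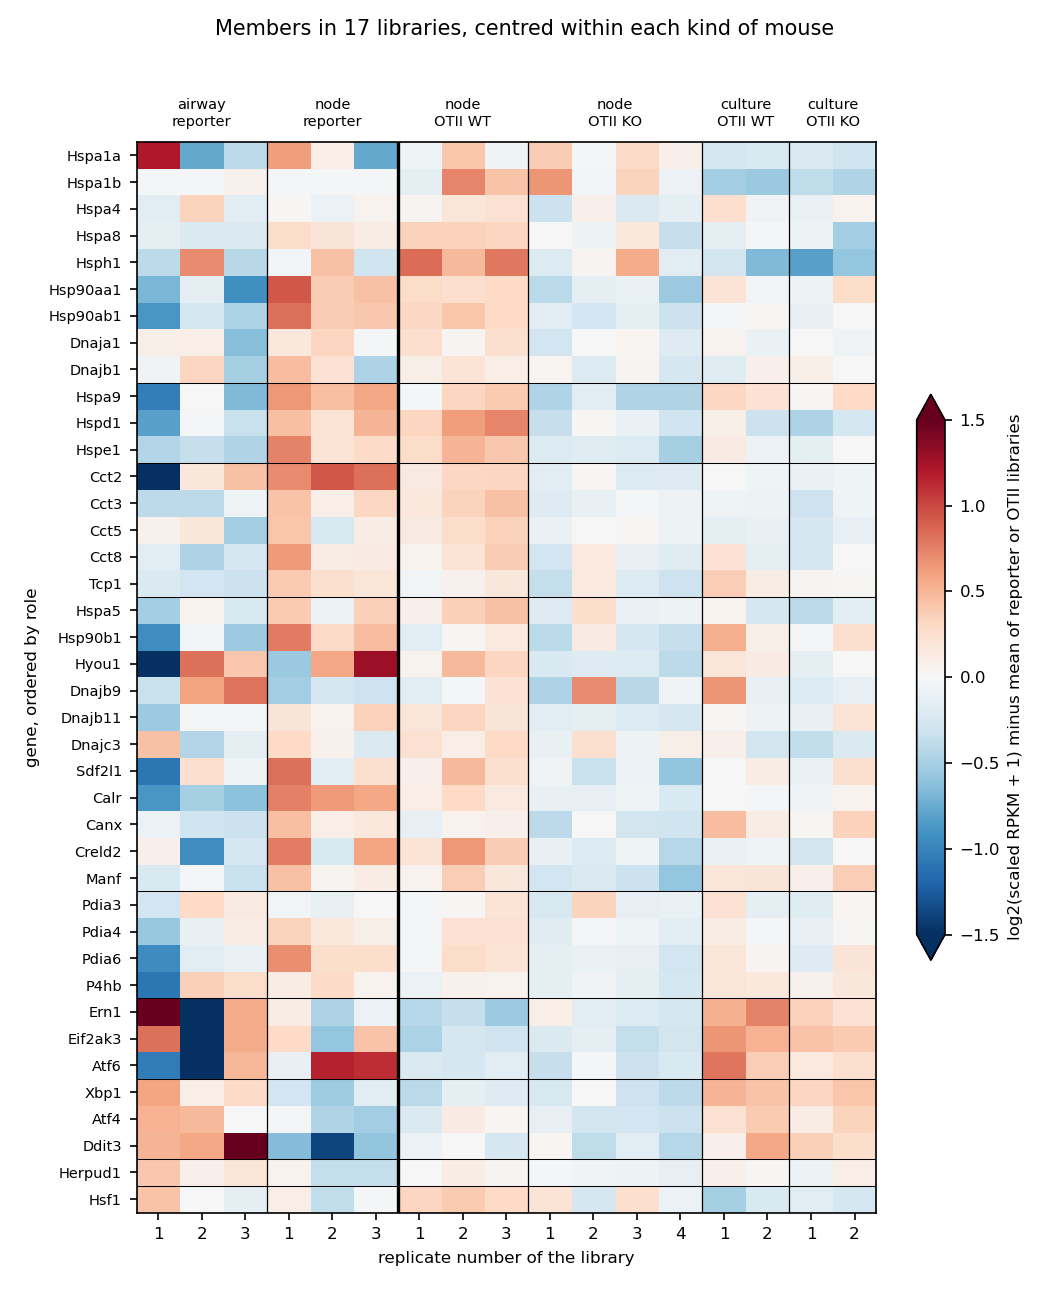
Level of each of the 40 genes (rows, ordered by role) in each of the 17 libraries (columns), as log2(scaled RPKM + 1) minus the gene's mean over the reporter libraries (left of the thick line) or the OTII libraries (right). Most chaperone rows are higher in wild type than in knockout-labelled node libraries, sensor rows are high in culture, and airway replicates 1 and 2 have extreme cells (Cct2, Hyou1, Ern1, Atf6).

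The members took 1.56% of summed RPKM in wild type node libraries (1.46 to 1.62) and 1.23% in knockout-labelled ones (1.15 to 1.38), which did not overlap. The share was 1.41% and 1.32% in wild type and knockout-labelled culture, 1.16% in the reporter node and 0.833% in the airway. Reporter and OTII tables used different transcripts for 1644 genes, among them Dnajb11 and Canx, so no test was made between the 2 kinds of mice.

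In lymph node Th2 cells of OTII mice, the knockout label went with lower chaperone expression across compartments. Of 39 members tested, 17 fell (43.6%), against 7.68% of the 10869 genes tested, and 0 rose, against 10.4%. The members were chosen with earlier results of these data known, so these shares describe the set and are not independent support. The log2 differences of 36 of the 39 were negative, with a median of -0.30 against 0.02 for all genes tested, and ranged from -0.74 (Hspd1) to 0.31 (Ern1). Wild type and knockout-labelled values did not overlap for 21 of the 39, against 31.2% of all genes tested. Cytosolic, mitochondrial and ER chaperones and TRiC subunits were all among those that fell, while the sensors and transcription factors of the unfolded protein response did not pass. In bulk samples such as these, fewer cells of a type and less RNA per cell cannot be told apart.

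All 3 mitochondrial chaperones fell. Hspd1 (HSP60) was 63.0, 77.7 and 84.0 in wild type and 39.3, 50.9, 46.7 and 40.7 in knockout-labelled replicates 1 to 4. Every knockout-labelled value lay below every wild type value, and the log2 difference was -0.74 (SE 0.12, adjusted p = 0.00432). Its partner Hspe1 (HSP10) was 129, 151 and 140 against 91.2, 93.3, 91.8 and 74.6, again without overlap (-0.67, SE 0.10, adjusted p = 0.00255). Hspd1 and Hspe1 thus differed by similar amounts here, and the part of their shared promoter stretch was not tested. Between culture and node in wild type cells their log2 differences were -0.68 and -0.38. Hspa9 (mortalin, the HSP70 of the matrix) was 64.1, 81.7 and 85.8 against 47.4, 58.4, 47.4 and 47.4. Its groups did not overlap either (-0.61, SE 0.12, adjusted p = 0.00935), and leaving out wild type replicate 2 ended the call (adjusted p = 0.0501).

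Among cytosolic chaperones 4 of 8 tested fell, the HSP90 pair first. Hsp90ab1, the constitutive HSP90, was 1291, 1394 and 1279 in wild type and 924, 854, 951 and 832 in knockout-labelled libraries. All 4 knockout-labelled values were lower (log2 difference -0.57, SE 0.09, adjusted p = 0.00269). Hsp90aa1, the inducible form, was 73.6, 72.5 and 74.4 against 45.5, 54.5, 56.3 and 41.2. The wild type values lay close together and above all others (-0.58, SE 0.11, adjusted p = 0.00837). Hspa8, the constitutive HSP70, fell by 0.40 (SE 0.11, adjusted p = 0.0388). Hsph1, an HSP110 that acts as exchange factor for HSP70, fell by 0.65 (SE 0.18, adjusted p = 0.0373), with knockout-labelled replicate 3 (47.5) inside the wild type range of 45.3 to 57.8. The calls of Hspa8 and Hsph1 were each lost in the fits that left out any of the wild type libraries, and without knockout-labelled replicate 1 or 4 (highest adjusted p 0.129 and 0.124). Hspa4, Dnaja1 and Dnajb1, of the HSP110 and HSP40 families, did not pass (log2 differences -0.30, -0.29 and -0.23, adjusted p 0.0765, 0.0925 and 0.147).

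TRiC, the ring that folds actin and tubulin, had 3 of 5 subunits lower. Cct2 was 189, 213 and 214 in wild type and 153, 173, 149 and 149 in knockout-labelled libraries, with no overlap (-0.40, SE 0.09, adjusted p = 0.0137). Cct3 fell by 0.41 (SE 0.09, adjusted p = 0.0112) and Cct5 by 0.30 (SE 0.08, adjusted p = 0.0327). Cct8 and Tcp1 did not pass (-0.32 and -0.24, adjusted p 0.0951 and 0.221). In both, knockout-labelled replicate 2 lay within the wild type range. Leaving out wild type replicate 2 or 3 ended the calls of Cct2 and Cct3 (highest adjusted p 0.0724 and 0.0637), and that of Cct5 was lost in those 2 fits and without knockout-labelled replicate 1, 3 or 4 (highest 0.150).

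In the ER, 6 of 11 chaperones fell, and BiP was not among them. Dnajb11, the HSP40 partner of BiP, was 92.6, 102 and 93.3 in wild type and 73.0, 73.4, 70.6 and 68.4 in knockout-labelled libraries. The knockout-labelled values were tightly grouped below the wild type (-0.42, SE 0.07, adjusted p = 0.00466). Creld2, a secreted ER stress gene with the element shown above, was 65.7, 89.9 and 74.6 against 52.8, 49.1, 54.5 and 42.2 (-0.61, SE 0.12, adjusted p = 0.0102). Hyou1, the large HSP70 of the ER, was 64.1, 87.0 and 77.4 against 52.6, 53.8, 53.6 and 47.0 (-0.54, SE 0.11, adjusted p = 0.00979). Neither gene's groups overlapped. Manf fell by 0.54 (adjusted p = 0.0102), Sdf2l1 by 0.53 (adjusted p = 0.0365) and Calr by 0.31 (adjusted p = 0.0319). Calr was 578, 665 and 596 against 500, 494, 516 and 460, without overlap, but its call was lost when any wild type replicate or knockout-labelled replicate 3 or 4 was left out (highest adjusted p = 0.154). The call of Manf ended without wild type replicate 2 (0.0525), and that of Sdf2l1 when wild type replicate 2, wild type replicate 3 or knockout-labelled replicate 4 was dropped (highest 0.156).

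Hspa5 was 387, 469 and 496 in wild type and 320, 440, 341 and 347 in knockout-labelled libraries, so that replicate 2 lay among the wild type values (-0.32, interval -0.61 to -0.03, adjusted p = 0.126). Hsp90b1 (-0.22, adjusted p = 0.319) and Canx (-0.25, adjusted p = 0.142) had the same replicate within the wild type range (346 and 94.0, against 280 to 347 and 86.5 to 99.4). Without that replicate, 24 members fell: the same 17 and Hspa4, Cct8, Tcp1, Hspa5, Hsp90b1, Canx and Pdia4. Without wild type replicate 2 the count was 7 (Hsp90aa1, Hsp90ab1, Hspd1, Hspe1, Hyou1, Dnajb11 and Creld2), without wild type replicate 3 it was 9, and without knockout-labelled replicate 4 it was 11. Those 7 genes were called in all 7 fits that left out 1 library. With a replicate block, Hspd1 and Hspe1 were the only members called. With replicates of the same header number averaged, 15 fell, 14 of them among the 17.

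Of the disulfide isomerases, which form and shuffle disulfide bonds, Pdia6 fell (-0.31, adjusted p = 0.0499) and P4hb, Pdia3 and Pdia4 did not pass. The call of Pdia6 lay at the threshold and did not survive leaving out knockout-labelled replicate 1, 3 or 4, nor wild type replicate 2 or 3 (highest adjusted p = 0.209).

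None of the 3 sensors and 3 transcription factors of the unfolded protein response passed. Xbp1 was 52.7, 63.0 and 61.1 in wild type and 58.8, 70.0, 56.2 and 53.0 in knockout-labelled libraries, fully overlapping (log2 difference 0.01, interval -0.24 to 0.26). Spliced and unspliced Xbp1 are not separated in RPKM. Ddit3 (27.8, 29.5 and 24.6 against 30.3, 22.5, 26.3 and 21.8) overlapped too (-0.12, interval -0.40 to 0.16). Atf4 differed by -0.23 (interval -0.45 to -0.01, adjusted p = 0.135). Among sensors, Ern1 was 3.18, 3.42 and 2.84 against 5.02, 4.03, 3.86 and 3.66, higher in all 4 knockout-labelled libraries but not past the threshold (0.31, SE 0.12, adjusted p = 0.108). Eif2ak3 and Atf6 overlapped (0.09 and -0.02). Herpud1 and Hsf1 did not pass (-0.12 and -0.31, adjusted p 0.260 and 0.129).

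Of the 7 genes with the ER stress element shown above, Calr, Creld2 and Pdia6 fell in this comparison, and Hspa5, Hsp90b1, Dnajc3 and Canx did not pass.

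**Figure D2:**
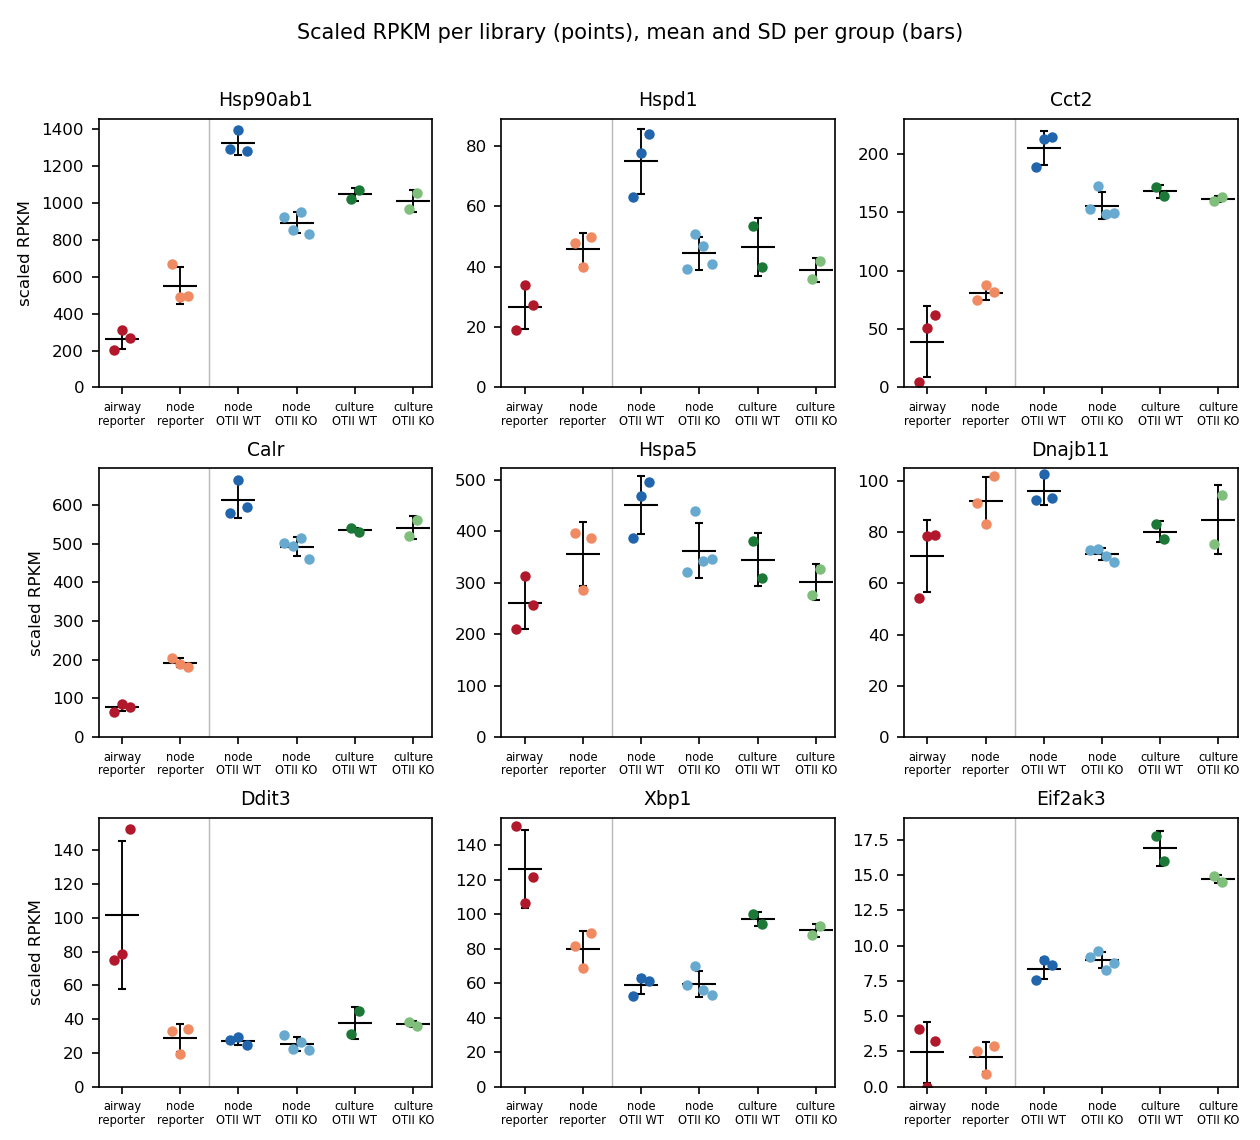
Scaled RPKM of 9 members in each library (points) with the group mean and SD (bars); the vertical line separates reporter from OTII mice, which were not compared. For Hsp90ab1, Hspd1, Cct2, Calr and Dnajb11 all 4 knockout-labelled node libraries lie below the 3 wild type ones, whereas for Xbp1 and Hspa5 they overlap and for Eif2ak3 culture is higher than node.

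Of other genes of these pathways, taken from 6 further lists of 97 genes, 21 of 88 tested fell and 2 rose. Of all genes tested, 7.68% fell and 10.4% rose. These lists, too, were chosen with earlier results of these data known. Fkbp4 and Ahsa1, cochaperones of HSP90, fell by 0.67 (SE 0.15, adjusted p = 0.0143) and 0.42 (SE 0.09, adjusted p = 0.0160). The further TRiC subunits Cct6a and Cct7 fell by 0.52 and 0.42 (adjusted p 0.0104 and 0.00554), and Trap1, the mitochondrial HSP90, by 0.37 (adjusted p = 0.0334). In the ER list 5 of 24 fell, led by Pdia5 (1.76 to 0.515, log2 difference -0.86, adjusted p = 0.00347) and Nucb2 (4.38 to 2.04, adjusted p = 0.00779). Pdia5 reached the testing level of 1 only in wild type libraries (1.43 to 2.06, against 0.356 to 0.726). Its fall is therefore given only as values near the floor.

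In the integrated stress response list, made of ATF4 targets and relatives, 9 of 16 fell, against 7.68% of all genes tested, and 1 rose, against 10.4%. Mthfd2, an enzyme of mitochondrial folate metabolism, went from 61.0 ± 2.87 (SD, n = 3) in wild type to 40.8 ± 1.94 (SD, n = 4), a log2 difference of -0.57 (adjusted p = 0.00122). Slc7a5, a carrier of large amino acids, went from 35.1 ± 9.25 to 16.5 ± 2.27 (-1.02, adjusted p = 0.00490). Among other stress regulators, Eif2ak4 (GCN2, the kinase that senses amino acid lack) rose from 5.11 ± 0.172 to 7.72 ± 0.258 (0.51, adjusted p = 0.00351). Of 18 cell cycle genes, all 18 had negative log2 differences and 5 fell, with summed levels of 1762 to 2004 in wild type and 1378 to 1684 in knockout-labelled libraries. Immediate early genes summed to 861 to 1058 against 563 to 825 (3 of 12 tested fell and 2 rose), and the 13 macrophage markers to 11.3 to 14.4 against 5.12 to 8.88 (1 of 3 tested fell). The 7 basophil markers summed to 1.94 to 2.54 against 0.134 to 0.713, and the 5 NK and CD8 T cell markers to 6.93 to 9.86 against 4.07 to 5.06. None of these 5 sums overlapped between the genotypes, while T cell markers (2541 to 2856 against 2619 to 3298) did, and the part of these lists in the chaperone result was not tested.

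In culture, the same genotype contrast called no member. Of 10968 genes tested, 0 rose (0%) and 0 fell (0%) by limma, with 256 genes at an unadjusted p under 0.05, none of them a member, and limma voom on reads called 2 genes, none a member. The log2 differences of 31 of 38 members were negative (median -0.10, against 0.00 for all genes). With 2 libraries a group, the intervals were wide: for Hsp90ab1 (1019 and 1069 in wild type, 966 and 1051 in knockout-labelled) the difference was -0.05 with an interval from -0.46 to 0.36. Hspd1, at 53.4 and 39.9 against 36.0 and 41.7, differed by -0.25 (interval -0.68 to 0.18), an interval that overlaps that of the node (-1.02 to -0.46). For Hspe1 the interval in culture was -0.45 to 0.29, and for Calr -0.37 to 0.39. Creld2 and Dnajb11 differed by -0.06 (interval -0.43 to 0.30) and 0.07 (interval -0.32 to 0.46).

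Whether the genotype difference itself changed between node and culture was tested by an interaction over the 4 OTII groups. Of 11508 genes, 1.49% had a higher and 2.35% a lower difference in culture, and 0 of 39 members passed in either direction. The member median was 0.20 against -0.02 for all genes, and 32 of 39 were positive. Hsp90ab1 came nearest (0.52, interval 0.21 to 0.83, adjusted p = 0.0682). Ern1 went the other way (-0.66, interval -1.07 to -0.25, adjusted p = 0.0815), as it was higher in the knockout-labelled node and lower in knockout-labelled culture. Hence the fall of the 17 members in the node was not shown to differ from culture. Of the further pathway genes, Pdia5 had a higher difference in culture (0.89, adjusted p = 0.0404) and Eif2ak4 a lower one (-0.59, adjusted p = 0.0265). Pdia5 was near the floor in the knockout-labelled node, at 0.356 to 0.726.

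**Figure D3:**
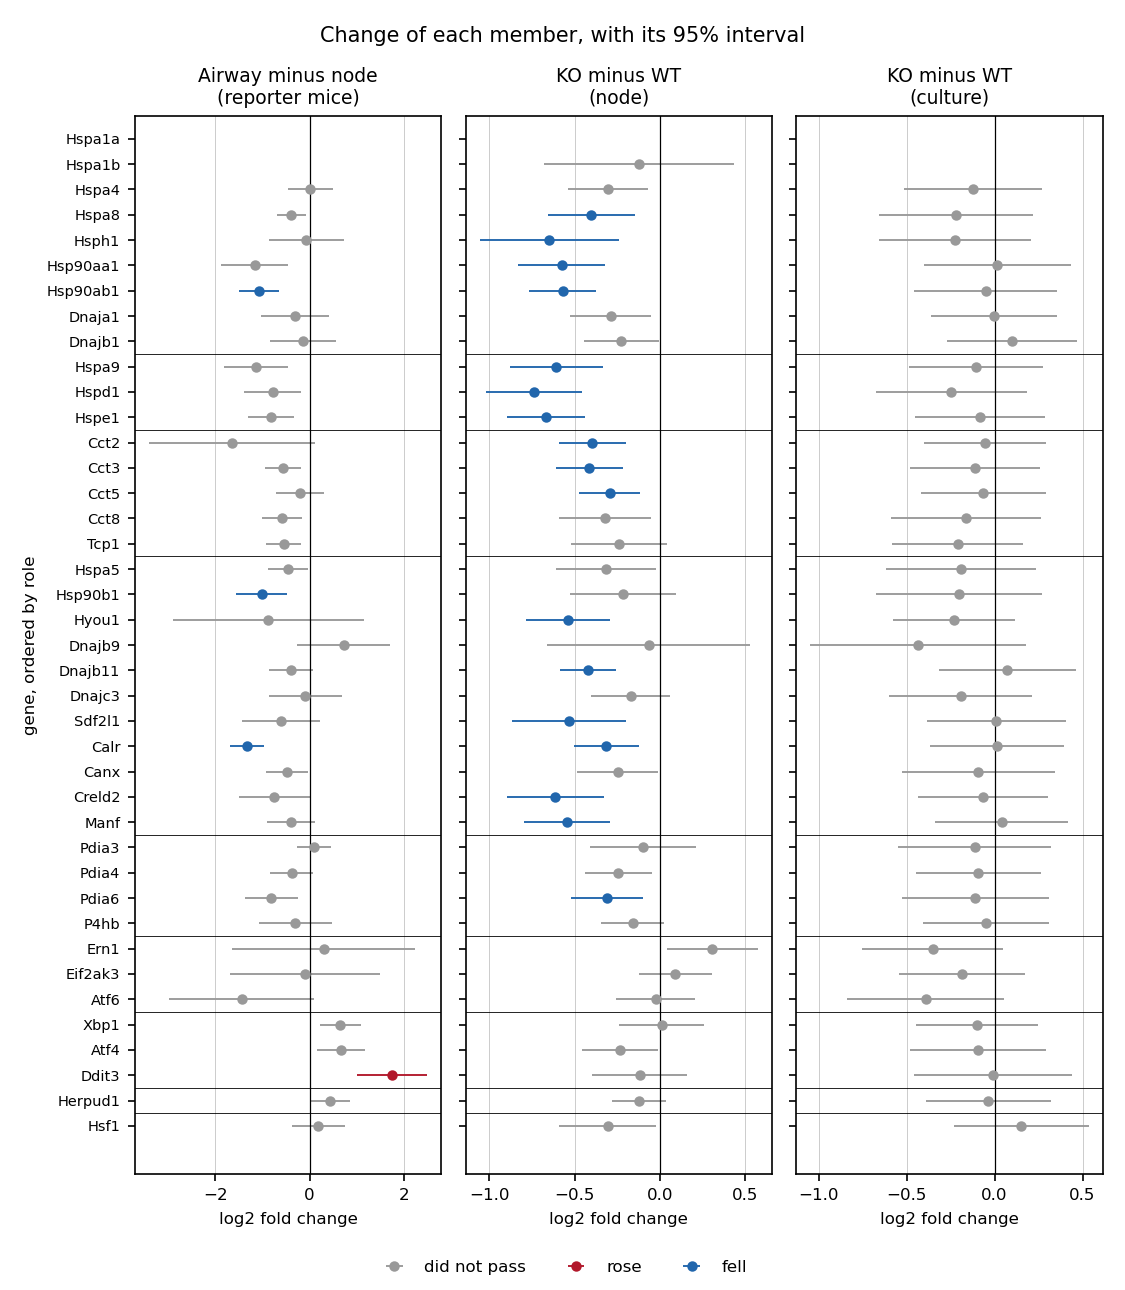
Log2 fold change of each member (points, on the log2(scaled RPKM + 1) scale) with its 95% interval (bars) for airway minus lymph node, and for knockout-labelled minus wild type in node and culture; blue fell, red rose, grey did not pass, and rows without a point were not tested. In the node 17 genes are blue and none red, in culture every interval spans 0, and in the airway Calr, Hsp90ab1 and Hsp90b1 fell while Ddit3 rose.

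Culture and lymph node were compared within each genotype. These comparisons use the same libraries as those of the genotypes above, so their values are given side by side and not as separate evidence. In wild type cells 4 of 39 members rose (10.3%), against 17.5% of 11108 genes tested, and 9 fell (23.1%), against 13.5%. In knockout-labelled cells 7 of 38 rose (18.4%), against 15.3% of 11227 genes, and 1 fell (2.63%), against 13.7%. The members' shares of calls thus lay on both sides of the background. Culture and node values did not overlap for 25 of 39 members in wild type cells, against 57.9% of all genes tested. In knockout-labelled cells they did not overlap for 19 of 38, against 49.7%. A lack of overlap was thus common among all genes here.

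All 3 ER stress sensors rose in wild type culture. Ern1 was 7.10 and 8.35 in culture against 2.84 to 3.42 in the node (log2 difference 1.07, SE 0.14, adjusted p = 0.00113). Eif2ak3 was 17.8 and 15.99 against 7.54 to 8.95 (0.93, SE 0.12, adjusted p = 0.00131). Atf6 was 14.02 and 10.04 against 6.21 to 6.68 (0.79, SE 0.15, adjusted p = 0.00753). For each sensor both culture values were above all node values, and the calls held in all 5 fits that left out 1 library. In knockout-labelled cells Eif2ak3 (14.9 and 14.5 against 8.26 to 9.64; 0.66, adjusted p = 0.00299) and Atf6 (0.43, adjusted p = 0.0406) rose as well. Ern1 was 6.13 and 5.52 against 3.66 to 5.02 there (0.41, adjusted p = 0.0618). The call of Atf6 in knockout-labelled cells was lost when node replicate 1, 3 or 4 or either culture library was left out (highest adjusted p = 0.226).

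Xbp1 rose in culture in both genotypes. In wild type it was 99.9 and 94.3 against 52.7, 63.0 and 61.1 (0.71, SE 0.11, adjusted p = 0.00305), and in knockout-labelled cells 87.9 and 93.2 against 53.0 to 70.0 (0.60, SE 0.13, adjusted p = 0.00864). Culture and node did not overlap in either genotype. Atf4 was 211 and 237 against 155 to 196 in wild type (0.33, adjusted p = 0.0884), and 194 and 227 against 143 to 165 in knockout-labelled cells (0.47, adjusted p = 0.0142). Ddit3 was 31.2 and 44.6 against 24.6 to 29.5 (0.44, adjusted p = 0.0776), and 38.3 and 35.9 against 21.8 to 30.3 (0.55, adjusted p = 0.0229). In knockout-labelled cells the call of Xbp1 was lost without either culture library (highest adjusted p = 0.0830), that of Atf4 without culture replicate 2 (0.130), and that of Ddit3 without node replicate 4 or either culture library (highest 0.153). Atf4 and Ddit3 lay above the node in both genotypes and passed in the knockout-labelled one; a difference between genotypes did not pass the interaction test (adjusted p 0.680 and 0.825).

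Few chaperones rose beside the sensors, and some fell. Hsph1 fell in wild type culture, from 57.8, 45.3 and 56.2 to 26.2 and 19.8 (-1.18, SE 0.16, adjusted p = 0.00144), and in knockout-labelled culture, from 27.6 to 47.5 down to 17.8 and 21.1 (-0.75, adjusted p = 0.0292). The second call was lost without either culture library (highest adjusted p = 0.206). Hsf1, the master heat shock factor, went from 29.4 to 31.5 in wild type node down to 16.6 and 20.2 (-0.70, SE 0.12, adjusted p = 0.00423). It was 21.2 and 19.7 against 19.8 to 28.4 in knockout-labelled cells, where the groups overlapped (-0.24, adjusted p = 0.297). The other members that fell in wild type culture were Hspa1b, Hspa8, Hspd1, Hspe1, Cct3, Cct5 and Creld2, with log2 differences from -0.87 to -0.38. Each of these 7 calls was lost in at least 2 fits that left out 1 library. The lowest difference was that of Hspa1b, 1 of the 9 falls counted above. It reached the testing level of 1 only in node replicates 2 and 3 (1.56 and 1.08). Node replicate 1 was 0.408, and culture was 0.0900 and 0.0530. Its call was also lost without the filter, so it is given only as values near the floor. Without node replicate 2, as without node replicate 3, 2 members fell (Hsph1 and Hsf1), and without culture replicate 2 there were 4 that fell and 7 that rose, Hsp90b1, Dnajb9 and Canx among the latter.

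BiP did not pass in either genotype (-0.39, adjusted p = 0.0857, and -0.26, adjusted p = 0.238), and Herpud1 differed from the node by 0.00 and 0.08. Manf (0.58, adjusted p = 0.0146) and Hspa9 (0.54, adjusted p = 0.0174) rose in knockout-labelled culture and were -0.01 and 0.04 in wild type. In wild type, Manf was 68.5 to 85.6 in the node against 74.9 and 75.7 in culture. The rise of Manf was not called without culture replicate 2 (adjusted p = 0.148), nor that of Hspa9 without culture replicate 2 or node replicate 4 (highest 0.166). Without knockout-labelled culture replicate 2, 1 member rose in that genotype (Eif2ak3), without culture replicate 1 or node replicate 4 there were 4, and without node replicate 2 there were 11. Of the ER stress element genes, Creld2 was the one called in culture.

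Of the integrated stress response list, 9 of 19 tested rose and 1 fell in wild type culture, and 13 rose and 1 fell in knockout-labelled cells. Of all genes tested, 17.5% rose and 13.5% fell in wild type culture. In knockout-labelled culture 15.3% rose and 13.7% fell. Trib3, a pseudokinase induced by ATF4 and CHOP, went from 1.79 ± 0.472 (SD, n = 3) in the wild type node to 13.99 ± 3.71 (SD, n = 2) in culture (2.42, adjusted p = 1.84e-04), and from 1.08 to 12.0 in knockout-labelled cells (2.66, adjusted p = 2.35e-05). Chac1, which degrades glutathione, went from 0.222 to 3.90 in wild type (2.01, adjusted p = 1.02e-04). It reached the testing level of 1 only in culture (3.83 and 3.97, against 0.104 to 0.298 in the node). Its rise is therefore given only as its values. Ero1l, the oxidase that recharges disulfide isomerases, went from 14.6 ± 2.96 to 45.2 ± 12.9 (1.56, adjusted p = 0.00140). Bag3, an HSP70 cochaperone and heat shock target, went from 6.95 to 1.96 in knockout-labelled cells (-1.42, adjusted p = 9.46e-04). St13, another HSP70 cochaperone, fell in wild type (-0.78, adjusted p = 0.00103), while Dnajb6 rose (0.77, adjusted p = 0.00243).

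Immediate early genes, which respond within minutes to activation and to cell handling, mostly fell in culture: 10 of 13 fell and 2 rose in wild type, and 8 fell and 2 rose in knockout-labelled cells. Their summed level was 861 to 1058 in wild type node libraries and 221 and 340 in culture, and 563 to 825 and 322 and 377 in knockout-labelled ones. Of 18 cell cycle genes, 8 rose in wild type culture and 13 in knockout-labelled culture, against 17.5% and 15.3% of all genes tested. The part of either in the fall of Hsph1, Hspa8 and Hspa1b was not tested.

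In reporter mice, the airway libraries had lower Calr, Hsp90ab1 and Hsp90b1 and higher Ddit3 than the lymph node libraries. Of 38 members tested, 3 fell (7.89%), against 2.30% of the 10111 genes tested, and 1 rose (2.63%), against 2.97%. The log2 differences of 29 of the 38 were negative, with a median of -0.39 against -0.07 for all genes tested. Airway and node values did not overlap for 20 of the 38, against 26.9% of all genes tested. The 1 rise is a share near the background and is given as that gene's value, not as a result about the set. The airway libraries carried the macrophage transcripts given above. Basophil markers and plasma and B cell markers were found in reporter libraries as well. The part of these transcripts in the airway results was not tested.

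Calr was 65.8, 85.3 and 78.6 in the airway and 206, 189 and 182 in the node. The groups were far apart (-1.32, SE 0.16, adjusted p = 0.00374), and Calr was the member called in all 6 fits that left out a library. Hsp90ab1 was 204, 313 and 270 against 667, 489 and 495, without overlap (-1.08, SE 0.19, adjusted p = 0.0145). Hsp90b1 was 87.8, 164 and 115 against 290, 206 and 233, also without overlap (-1.02, SE 0.24, adjusted p = 0.0408). The call of Hsp90ab1 was lost without any 1 of the 3 node libraries (highest adjusted p = 0.0834), and that of Hsp90b1 without any of them or without airway replicate 1 or 3 (highest adjusted p = 0.202). Hsp90b1 also did not pass with a pseudocount of 0.1, without the filter on low genes or with voom, and Hsp90ab1 did not pass without the filter. Without airway replicate 2, 5 members fell, with Hsp90aa1 and Hspa9 added.

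Ddit3 (CHOP) was 74.8, 78.4 and 152 in the airway against 32.8, 19.5 and 34.3 in the node. All airway values were higher, replicate 3 by far the most (1.75, SE 0.33, adjusted p = 0.0191). The call was lost without any 1 of the 3 node libraries (highest adjusted p = 0.0831), without the filter on low genes and with voom. Xbp1 (151, 106 and 121 against 81.4, 68.6 and 89.2) and Atf4 (105, 102 and 72.5 against 71.2, 53.0 and 50.5) were higher in every airway library without passing (0.65 and 0.67, adjusted p 0.0965 and 0.137). Herpud1, a target of both branches, was 144, 114 and 124 against 113, 84.9 and 84.4 (0.44, adjusted p = 0.225). The transcription factors thus lay above and most chaperones below the node values, and Ddit3 was the only one of these factors that passed. In the integrated stress response list, 9 of 14 tested were lower in the airway and 5 higher (median -0.46). Of these 14, 1 fell and 0 rose.

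The mitochondrial chaperones and TRiC subunits were lower in the airway by their medians (-0.82 and -0.56), and none passed. Hspe1 was 37.9, 40.9 and 37.8 against 88.1, 60.0 and 63.5, without overlap (-0.82, adjusted p = 0.0674). Hspa9 and Hsp90aa1 did not overlap either (-1.13 and -1.17, adjusted p 0.0699 and 0.0703). Cct2 was 4.53 in airway replicate 1 (155 reads) and 51.1 and 61.9 in the others, against 75.2 to 87.4 in the node. Hyou1 was 0.167 in the same library (13 reads) and 11.1 and 8.03 in the others, against 3.63 to 15.6. The standard errors of their log2 differences, 0.78 and 0.90, were among the widest of the members.

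The sensors could not be measured evenly in the airway. Ern1 was 11.8, 0 and 4.48 against 3.02, 1.70 and 2.49, and Eif2ak3 was 4.10, 0 and 3.24 against 2.54, 0.928 and 2.88. Both were listed at 0 in airway replicate 2, in which 14385 genes were listed at 0, against 12177 to 14256 in the other reporter libraries. Atf6 was 0.710, 0.160 and 4.02 against 2.28, 6.91 and 6.65. Their intervals spanned 0 (Ern1 -1.65 to 2.24, Eif2ak3 -1.69 to 1.497, Atf6 -2.98 to 0.10).

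Among the disulfide isomerases, Pdia3 overlapped (375, 559 and 498 against 444, 421 and 458) and Pdia6 was lower without passing (-0.81, adjusted p = 0.106). In the further lists 3 of 82 tested fell, against 2.30% of all genes, and 0 rose, against 2.97%, so these counts are near the background. The 3 were Cct6a (-1.09, adjusted p = 0.0490), Txndc5, an ER thioredoxin (-1.19, adjusted p = 0.0431), and Ddit4, a brake on mTORC1 (-1.72, adjusted p = 0.0108). Cell cycle genes moved in the same direction as the chaperones: 14 of 18 fell, with summed levels of 278 to 375 in the airway and 1355 to 2004 in the node, and their part in the chaperone values was not tested.

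**Figure D4:**
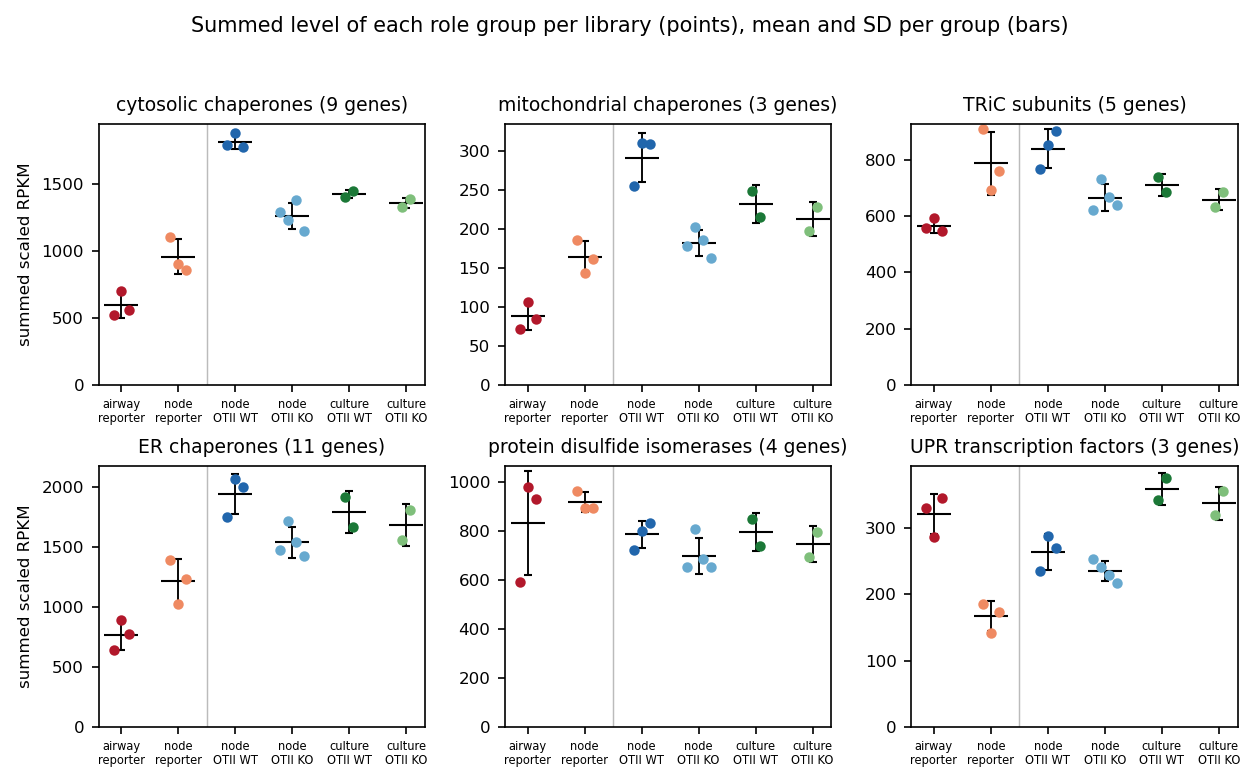
Summed scaled RPKM of 6 role groups in each library (points) with the group mean and SD (bars); the vertical line separates reporter from OTII mice. Cytosolic chaperones sum to 1778 to 1883 in wild type node libraries and 1148 to 1379 in knockout-labelled ones, mitochondrial chaperones to 256 to 310 and 163 to 203, and transcription factors of the unfolded protein response to 287 to 346 in the airway against 141 to 185 in the reporter node.

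By summed level, cytosolic chaperones stood at 1817 ± 58.0 (SD, n = 3) in the wild type node, 1261 ± 97.2 (SD, n = 4) in the knockout-labelled node, 1425 ± 29.95 (SD, n = 2) in wild type culture and 1359 ± 38.8 (SD, n = 2) in knockout-labelled culture. Hsp90ab1 made up most of that sum in these groups. ER chaperones stood at 1941 ± 167, 1540 ± 128, 1792 ± 174 and 1682 ± 176 in the same order, where wild type and knockout-labelled node ranges (1753 to 2070 and 1426 to 1719) did not overlap and the culture ranges did. The sums of the 4 disulfide isomerases overlapped between all 4 OTII groups. The sensors summed to 17.1 to 18.6 and 18.0 to 21.1 in the node and to 34.4 to 38.9 and 29.2 to 29.5 in culture.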

How the data were processed

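RNA of 17 libraries had been sequenced, aligned with HISAT2 2.0.4 to mm10 and processed with HOMER, per the submitters' processing notes. The authors deposited 1 table of RPKM per library, per the file headers. Reads per gene were read back from the RPKM steps (99.2 to 99.9% of values below 100 reads were whole within 0.1) and gave the depth of 16.3 to 27.5 megareads. Here RPKM was divided by median-of-ratios factors over the 6796 genes at RPKM 1 or more in every library. limma 3.58.1 (R 4.3.3; lmFit, eBayes with trend) tested log2(scaled RPKM + 1) for genes at 1 or more in as many libraries as the smaller group held, with only the compared groups in each fit, 4 OTII groups for the interaction. Intervals are 95%, from limma's moderated t. The fit code was also run on simulated data, with a spread shared by all genes and planted changes larger than most member differences. That run does not assess the calls given here.

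Every member is named; from each of the 6 further pathway lists, up to 2 called genes with the smallest p in each comparison are eligible to be named, and Notch1 and Notch2 as targets. Members and lists were chosen with earlier results of these data known. Same-numbered libraries did not deviate together in every pair (r -0.002 to 0.009 for airway and node), so no block was used. Alternatives were a pseudocount of 0.1, no filter, unscaled RPKM, limma voom on the reads read back, a replicate block, all OTII groups in 1 fit and leaving out each library; averaging header pairs and a crossed block were added after seeing the data. Promoters and their build come from RefSeq. Sequences of the other 8 members' promoters were not used here.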

Additional observations from a re-analysis of the deposited data

Results flagged for a closer look

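Of 40 sets of 4 knockout-labelled node libraries examined, 1 per member, 2 had a library far from the other 3, and chance gives about 1 in 20. Hspa9 was 58.4 scaled RPKM in replicate 2 and 47.4 in each of the others. Hspe1 was 74.6 in replicate 4 and 91.2 to 93.3 in the others.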

How the results depend on the processing

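Of 539 refitted values of the 42 calls, 397 stayed past the threshold, 142 did not and 0 reversed direction. The refits reuse the same libraries and cover only members already called, so a reversal was unlikely from the start. In the airway comparison, 533 genes were called, against 224 without the filter and 225 with voom; members that rose became 0 under both, and members that fell 1 without the filter and 5 with RPKM as deposited. Leaving out a library gave 113 to 554 genes, 0 to 1 members up and 1 to 5 down. In the node genotype comparison, leaving out a library gave 1008 to 2716 genes and 7 to 24 members down. There, members that fell were 12 without the filter and 15 with all 4 OTII groups in 1 fit. In culture it gave 0 to 65 genes, and voom 2, all 4 OTII groups in 1 fit 1; no member was called in any of these. For culture against node in wild type, leave-outs gave 2194 to 4363 genes, 4 to 7 members up and 2 to 7 down; members that fell were 3 without the filter and 2 with header pairs averaged. In knockout-labelled cells leave-outs gave 1703 to 4235 genes, 1 to 11 members up and 0 to 1 down; 11 rose with all 4 OTII groups in 1 fit, and 2 fell with header pairs averaged. The interaction had 198 to 555 genes and 0 to 1 members up (Dnajb11, without knockout-labelled culture replicate 1), 257 genes with header pairs averaged, and 1 member up with voom (Hsp90ab1).

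A replicate block was fitted as an alternative, although the labels do not say that the numbers pair the libraries. Same-numbered knockout-labelled and wild type node libraries had r of -0.03, -0.41 and -0.48. With 2 pairs, culture and node had r of -0.10 and 0.45 in wild type and 0.13 and 0.13 in knockout-labelled cells. These r come from deviations within small groups, so they cannot settle whether the numbers pair the libraries. With the block, 636 genes and 2 members (Hspd1 and Hspe1) were called in the node, 65 genes in culture, 1932 genes and 0 rising members for knockout-labelled culture against node, and 166 genes for the interaction, and Hsp90b1 was not called in the airway; the cause was not tested. In culture the same-number r was -0.23, and the crossed pairing called 8 genes. Read numbers were low for some members in the reporter libraries: Hspa1b had 0 to 3 reads, Hspa1a 0 to 144 and Ern1 0 to 820.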
